A study of Rattus norvegicus with 20 samples.

Results

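The expression of 5 genes tied to muscle denervation and muscle development, Myh3, Myh8, Ncam1, Runx1 and Hdac4, was examined in gastrocnemius muscle of tumour-bearing rats. The 5 were picked by gene symbol, not by their values, from the 32495 named rows of the raw count table. Earlier results of these data were known when they were chosen. All 5 passed the filter on low counts that left 11716 genes for testing. Every rat was a female Fischer 344 carrying the Ward colorectal carcinoma, a transplantable tumour line, so that no group was free of tumour. TUMOUR STD (n = 5) received a semipurified standard diet and no chemotherapy. CHEMO STD (7 libraries, counted as n = 6) received the same diet and 2 cycles of irinotecan followed by 5-fluorouracil, and CHEMO FO (n = 8) received the same chemotherapy with a diet containing fish oil, a source of the n-3 fatty acids EPA and DHA, from the start of treatment. Samples are named by group and by the number in their label, from 1 to 20.

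Embryonic myosin heavy chain (Myh3) and perinatal myosin heavy chain (Myh8) are the motor proteins of developing muscle fibres, which adult fibres replace with fast and slow forms and make again during regeneration and, in part, after loss of the nerve. NCAM (Ncam1) is an adhesion molecule that is concentrated at the neuromuscular junction of adult fibres and spreads over the fibre when the nerve is lost. Runx1 is a transcription factor, and Hdac4 is a class IIa histone deacetylase, that accumulate in denervated muscle; Hdac4 acts through Dach2 and Hdac9 on myogenin (Myog), which drives the acetylcholine receptor subunits and the ubiquitin ligases of atrophy, Fbxo32 and Trim63.

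For 4 of the 5 genes, the RefSeq table of rat promoters (build GRCr8) held the sequence before a start site. The start used for Runx1 lies inside the gene, which RefSeq places at chr11:45325778-45560300 on the minus strand, and that used for Hdac4 also lies inside its gene (chr9:99950972-100200994), so that these windows belong to an internal start. In that build, Myh3 and Myh8 were the first and the fifth of 6 myosin heavy chain genes placed in a row on chromosome 10, in the order Myh3, Myh2, Myh1, Myh4, Myh8, Myh13. The 250 bases before that start are printed for Myh3 and Runx1, because these genes stood at opposite ends of their ranges in the same sample, CHEMO FO 18. Capitals mark matches to the motifs searched on either strand, which were the E-box CANNTG bound by myogenic factors, the RUNX motif TGTGGT, the TATA box TATAAA and the MEF2 motif.

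Myh3, chr10:52268935-52269184, plus strand: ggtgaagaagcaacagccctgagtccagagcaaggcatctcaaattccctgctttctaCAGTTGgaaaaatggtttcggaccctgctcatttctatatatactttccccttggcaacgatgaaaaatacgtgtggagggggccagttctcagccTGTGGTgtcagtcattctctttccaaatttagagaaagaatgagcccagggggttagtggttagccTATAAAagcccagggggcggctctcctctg

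Runx1, chr11:45421326-45421575, minus strand: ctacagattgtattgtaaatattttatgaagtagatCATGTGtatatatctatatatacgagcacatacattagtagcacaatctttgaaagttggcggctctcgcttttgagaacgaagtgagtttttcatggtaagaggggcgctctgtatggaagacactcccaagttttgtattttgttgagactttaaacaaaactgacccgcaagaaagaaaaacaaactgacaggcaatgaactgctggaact

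The Myh3 window held an E-box 192 bases, a RUNX motif 96 bases and a TATA box 30 bases before the start. In the Runx1 window there was an E-box 214 bases before the start, and in that of Hdac4 an E-box 144 bases before the start. No searched letters were found in the Myh8 window, and the marked matches do not overlap. Of 33469 rat promoters of this length, 65.5% held an E-box, 14.5% the RUNX motif, 12.9% the TATA box and 1.68% the MEF2 motif, so that these matches are descriptions of the sequence and not evidence of binding.

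Total counts per library ranged from 5422118 to 10857477 in TUMOUR STD, from 3020821 to 10516783 in CHEMO STD and from 3035841 to 9119394 in CHEMO FO. The libraries of CHEMO STD 1 and 2 differed far less than any other pair within a group (chi-square per gene of 2.23, against 13.7 to 255 in 58 other pairs) and were added and counted as 1 sample. CHEMO FO 18 stood apart, with the highest level of all 19 samples in 18.7% of genes tested and the lowest in 18.2%. TUMOUR STD 10 came next, with 12.1% and 13.9%, and in it the summed level of 9 keratinocyte genes reached 545 CPM (counts scaled to a common library size), against group medians of 4.05 to 6.78. Markers of muscle fibres were detected in every library, with a summed level of 6 markers between 117740 CPM in CHEMO FO 18 and 228710 CPM. Library sizes for CPM were scaled by edgeR's TMM method. The values are not divided by transcript length, so levels are compared between samples and never between genes.

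None of the 5 genes met the study's rule for a changed gene (unadjusted p under 0.05 and at least 1.5-fold) in any of the 3 comparisons by edgeR's quasi-likelihood test. Over all 11716 genes tested, the rule was met by 2.38% in CHEMO STD versus TUMOUR STD, by 1.66% in CHEMO FO versus CHEMO STD and by 3.60% in CHEMO FO versus TUMOUR STD. By direction, 0.930%, 0.615% and 1.09% of genes met it as higher and 1.45%, 1.05% and 2.51% as lower. No gene of the whole table passed a Benjamini-Hochberg adjusted p of 0.05 in edgeR, although 762, 528 and 1059 genes (6.50%, 4.51% and 9.04%) had an unadjusted p under 0.05, and DESeq2 on the same samples passed 0, 0 and 11 genes. For each of the 5 genes the CPM ranges overlapped in every comparison, whereas ranges without overlap were found for 0.495%, 0.0683% and 0.324% of genes tested. In bulk muscle, fewer cells of a type and less RNA per cell cannot be told apart.

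**Figure D1:**
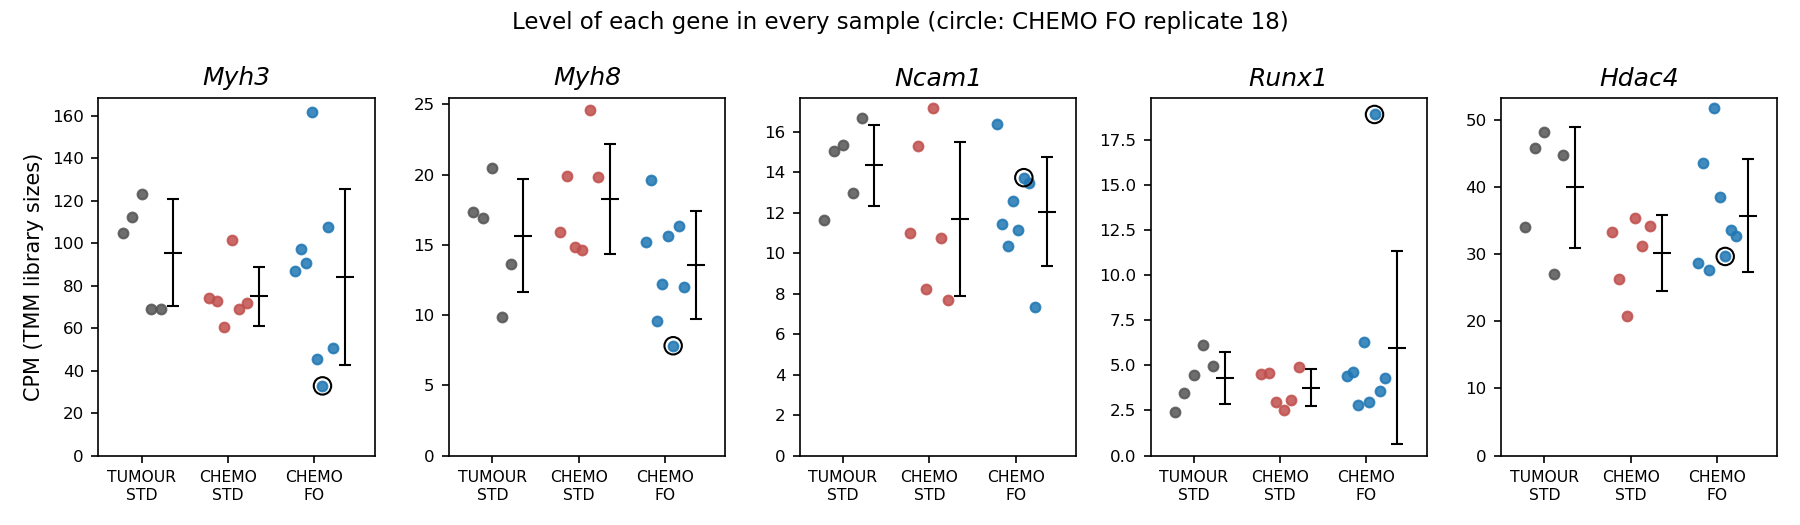
Level of each of the 5 genes in CPM (vertical axes, each starting at 0) in every sample of TUMOUR STD (n = 5), CHEMO STD (n = 6) and CHEMO FO (n = 8), with the group mean ± SD beside the points. The ringed point is CHEMO FO 18, which holds the lowest Myh3 and Myh8 and, at 18.9 CPM, the highest Runx1 of all 19 samples.

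Myh3, the embryonic myosin, was the developmental myosin with the wider spread. In TUMOUR STD its level was 105 CPM in sample 8, 112 in 9, 123 in 10, 69.1 in 11 and 69.0 in 12. In CHEMO STD it ran from 60.7 CPM in sample 4 to 102 in sample 5, with a median of 72.3, and in CHEMO FO from 32.8 in sample 18 to 162 in sample 16, with a median of 88.9. The TUMOUR STD samples formed a high and a low set with nothing between 69.1 and 105 CPM, and CHEMO FO extended past the other groups at both ends.

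The mean level of Myh3 was 95.6 ± 25.1 CPM (SD, n = 5) in TUMOUR STD, 75.0 ± 13.95 (n = 6) in CHEMO STD and 84.2 ± 41.6 (n = 8) in CHEMO FO. All 6 CHEMO STD samples lay below the TUMOUR STD median, and the log2 fold change was -0.36 (SE 0.289, 95% interval -0.95 to 0.24), with an adjusted p of 0.757 by edgeR's quasi-likelihood test. In CHEMO FO versus CHEMO STD the log2 fold change was 0.16 (SE 0.261, interval -0.38 to 0.70), and it was -0.043 without CHEMO FO 16. For CHEMO FO versus TUMOUR STD it was -0.20 (SE 0.271, interval -0.76 to 0.36). None of these intervals excluded 0. The exact two-sided permutation test of the group means on the log2 CPM scale gave p = 0.119, 0.948 and 0.423 in the same order.

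The spread of Myh3 inside the groups was wide for its level. The SD of its log2 CPM within groups was 0.555, against a median of 0.259 for the 500 genes nearest to it in level, 93.6% of which had a lower SD. The corresponding shares were 84.6% for Runx1, 69.2% for Myh8, 67.8% for Hdac4 and 52.8% for Ncam1. TUMOUR STD 10 and CHEMO FO 16, which held the highest Myh3 of their groups, also held the highest summed keratinocyte level of their groups (545 and 115 CPM). Of the 9 keratinocyte genes only Dsp passed the filter on low counts, and Krt5, Krt14 and Lor were at 0 throughout CHEMO STD. Within groups, Myh3 and the mean level of the 9 genes gave r = 0.43 and rho = 0.13 over 19 samples. The permutation p for r was 0.0786 and the adjusted p 0.403. The part of these genes in the group comparisons of Myh3 was not tested.

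Myh8, the perinatal myosin, had its highest levels in CHEMO STD. In TUMOUR STD it was at 17.4 CPM in sample 8, 16.9 in 9, 20.5 in 10, 9.87 in 11 and 13.7 in 12. CHEMO STD ran from 14.6 CPM in sample 5 to 24.6 in sample 6 with a median of 17.9, and CHEMO FO from 7.82 in sample 18 to 19.6 in sample 14 with a median of 13.7. CHEMO FO lay low against CHEMO STD: 4 of its 8 samples were below every CHEMO STD sample, and 1 of 8 was above the CHEMO STD median.

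Group means of Myh8 were 15.7 ± 4.04 CPM (SD, n = 5) in TUMOUR STD, 18.3 ± 3.91 (n = 6) in CHEMO STD and 13.6 ± 3.85 (n = 8) in CHEMO FO. CHEMO FO versus CHEMO STD had a log2 fold change of -0.435 (SE 0.197, 95% interval -0.84 to -0.03), with an unadjusted p of 0.0380 and an adjusted p of 0.974 by edgeR's quasi-likelihood test. This value was smaller than 1.5-fold and so was not a call, and an unadjusted p under 0.05 was found for 4.51% of all genes in this comparison. Without CHEMO FO 18 it was -0.33 with an unadjusted p of 0.0799 in edgeR. The exact two-sided permutation test gave p = 0.04995 for this comparison before any correction for the 15 tests of these genes. The other log2 fold changes were 0.21 (SE 0.217, interval -0.24 to 0.66) for CHEMO STD versus TUMOUR STD and -0.22 (SE 0.206, interval -0.65 to 0.20) for CHEMO FO versus TUMOUR STD, with exact permutation p-values of 0.297 and 0.384. Counts of Myh8 were low, between 35 and 315 per sample.

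Myh3 and Myh8 are close relatives of the adult myosins, and the way in which reads matching several of them were counted is not given in the sources used here. When the counts of Myh3 and Myh8 were added, the log2 fold change of the sum was -0.26 for CHEMO STD versus TUMOUR STD and 0.062 for CHEMO FO versus CHEMO STD. Both were opposite in sign to those of Myh8 alone. The sum follows Myh3, which had 238 to 1466 counts per sample, and so is no measure of Myh8.

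Ncam1, the junctional adhesion molecule, was highest on average in TUMOUR STD. There its level was 11.6 CPM in sample 8, 15.0 in 9, 15.3 in 10, 12.9 in 11 and 16.7 in 12. CHEMO STD ran from 7.67 CPM in sample 7 to 17.2 in sample 5 with a median of 10.9, and CHEMO FO from 7.35 in sample 20 to 16.4 in sample 13 with a median of 12.0. In each chemotherapy group 4 samples (of 6 and of 8) were below every TUMOUR STD sample, while CHEMO STD 5 was above them all.

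Means were 14.3 ± 2.01 CPM (SD, n = 5), 11.7 ± 3.81 (n = 6) and 12.1 ± 2.67 (n = 8) in TUMOUR STD, CHEMO STD and CHEMO FO. The log2 fold change of Ncam1 was -0.33 (SE 0.207, 95% interval -0.76 to 0.10) in CHEMO STD versus TUMOUR STD and -0.26 (SE 0.194, interval -0.66 to 0.14) in CHEMO FO versus TUMOUR STD, 2 comparisons that share the TUMOUR STD samples. Their adjusted p-values by edgeR's quasi-likelihood test were 0.728 and 0.685, and the exact permutation p-values were 0.154 and 0.140. Between the chemotherapy groups it was 0.067 (SE 0.191, interval -0.33 to 0.46) and turned to -0.023 without CHEMO STD 4 and to -0.028 without CHEMO STD 7.

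Schwann cells also make NCAM. The summed level of 11 Schwann cell markers, of which 6 passed the filter, was 109 to 498 CPM in TUMOUR STD, 107 to 475 in CHEMO STD and 88.8 to 168 in CHEMO FO. In CHEMO FO versus CHEMO STD all 6 tested markers were lower. The correlation of Ncam1 with the mean level of these 6 within groups was -0.30 over 19 samples (Spearman's rho -0.19), with a permutation p of 0.251 and an adjusted p of 0.478, and -0.041 without the 2 samples farthest from the median of Ncam1.

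Runx1 was set apart by a single sample. Its level in TUMOUR STD was 2.43 CPM in sample 8, 3.48 in 9, 4.47 in 10, 6.15 in 11 and 4.97 in 12. In CHEMO STD it ran from 2.54 CPM in sample 5 to 4.92 in sample 7 with a median of 3.80. In CHEMO FO it was 2.78 to 6.28 CPM in 7 samples and 18.9 in sample 18, a level 4.36 times the median of the other 18 samples. The medians of the groups, 4.47, 3.80 and 4.34 CPM, lay closer together than the samples within any of them.

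Mean Runx1 was 4.30 ± 1.42 CPM (SD, n = 5) in TUMOUR STD, 3.76 ± 1.01 (n = 6) in CHEMO STD and 5.98 ± 5.34 (n = 8) in CHEMO FO. The log2 fold change was 0.72 (SE 0.379, 95% interval -0.07 to 1.5008) in CHEMO FO versus CHEMO STD, with an unadjusted p of 0.0723 and an adjusted p of 0.974 by edgeR's quasi-likelihood test, and 0.54 (SE 0.390, interval -0.27 to 1.35) in CHEMO FO versus TUMOUR STD. Without CHEMO FO 18 they were 0.098 (SE 0.254) and -0.068 (SE 0.259). Leaving out CHEMO FO 15 or CHEMO FO 17, which have the lowest Runx1 of that group, turned the first into a call, at 0.82 and 0.83. Against TUMOUR STD, CHEMO STD had a log2 fold change of -0.18 (SE 0.422, interval -1.05 to 0.70). The exact permutation p-values were 0.359, 0.659 and 0.539 in the order given. Sampling of Runx1 was thin, with 8 to 208 counts per sample.

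Hdac4, the class IIa deacetylase, was at 34.1 CPM in TUMOUR STD sample 8, 45.8 in 9, 48.1 in 10, 27.0 in 11 and 44.7 in 12. CHEMO STD ran from 20.7 CPM in sample 4 to 35.3 in sample 5 with a median of 32.2, and CHEMO FO from 27.6 in sample 15 to 51.7 in sample 16 with a median of 33.1. Although the ranges overlapped, all 6 CHEMO STD samples lay below the TUMOUR STD median of 44.7 CPM and so did 7 of the 8 CHEMO FO samples. The highest Hdac4 of TUMOUR STD and of CHEMO FO was in samples 10 and 16, which also held the highest summed keratinocyte levels of these groups. Within groups, Hdac4 and the mean level of the 9 keratinocyte genes, of which only Dsp passed the filter, gave r = 0.51 and rho = 0.43 over 19 samples. The permutation p for r was 0.0385 and the adjusted p 0.403. The part of these genes in the group comparisons of Hdac4 was not tested.

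Mean Hdac4 was 39.9 ± 9.01 CPM (SD, n = 5) in TUMOUR STD, 30.2 ± 5.62 (n = 6) in CHEMO STD and 35.7 ± 8.37 (n = 8) in CHEMO FO. The log2 fold change in CHEMO STD versus TUMOUR STD was -0.41 (SE 0.182, 95% interval -0.79 to -0.03), with an unadjusted p of 0.0347 and an adjusted p of 0.719 by edgeR's quasi-likelihood test. It was smaller than 1.5-fold, and 6.50% of all genes had an unadjusted p under 0.05 in this comparison. It ran from -0.52 to -0.32 when each sample was left out in turn, and the exact two-sided permutation test gave p = 0.0649. CHEMO FO versus CHEMO STD gave 0.24 (SE 0.166, interval -0.10 to 0.58) and CHEMO FO versus TUMOUR STD -0.17 (SE 0.171, interval -0.52 to 0.19), with exact permutation p-values of 0.190 and 0.406.

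**Figure D2:**
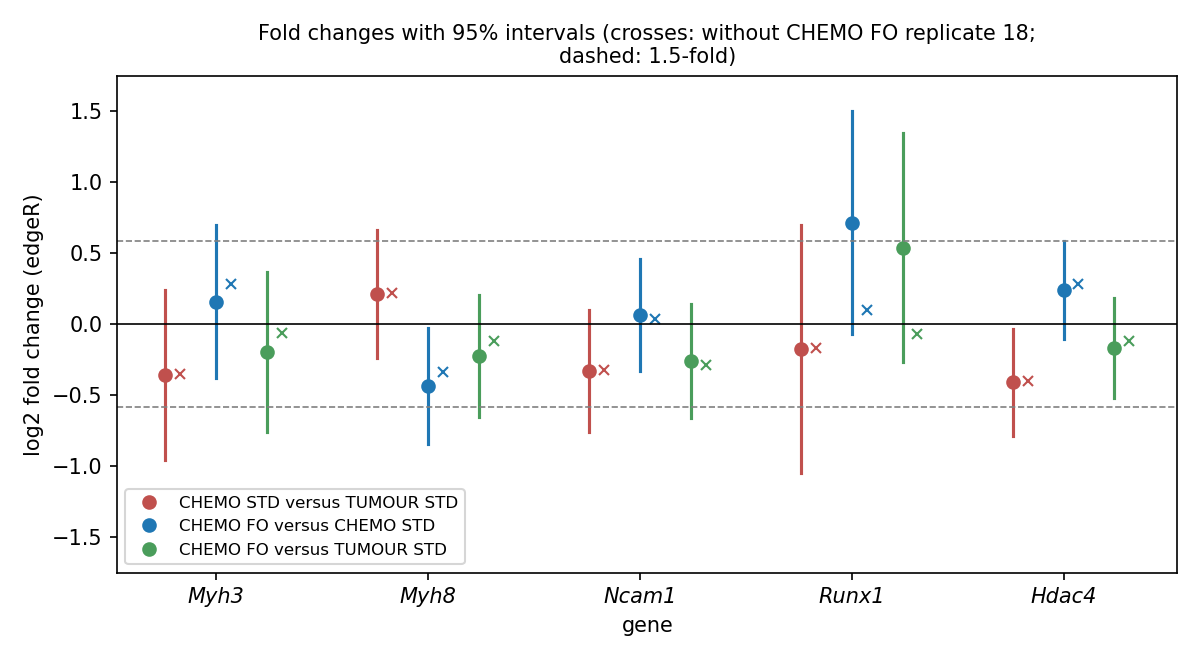
Log2 fold change of each of the 5 genes (vertical axis) in the 3 comparisons, as dots with 95% intervals from edgeR on 19 samples; crosses give the value without CHEMO FO 18 and dashed lines mark 1.5-fold. The intervals that leave out 0 are those of Hdac4 in CHEMO STD versus TUMOUR STD and of Myh8 in CHEMO FO versus CHEMO STD, whose dots lie inside the dashed lines, and Runx1 moves most when CHEMO FO 18 is dropped.

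The order of the group means thus differed from gene to gene. It was TUMOUR STD, CHEMO FO, CHEMO STD from high to low for Myh3, Ncam1 and Hdac4, CHEMO STD, TUMOUR STD, CHEMO FO for Myh8, and CHEMO FO, TUMOUR STD, CHEMO STD for Runx1. Without CHEMO FO 18, mean Runx1 in CHEMO FO was 4.13 ± 1.19 CPM (SD, n = 7), which put its groups in the order of Myh3. No pair of neighbours in these orders met the rule for any gene.

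The other genes of the denervation response were read from a list of 15, of which 12 passed the filter. This list and those below were chosen with earlier results of these data known. The shares of all genes given beside their calls are therefore no test of the lists. Dach2 was below it and Chrng was not analysed here. In CHEMO STD versus TUMOUR STD 7 of the 12 were higher and 5 lower, with a median log2 fold change of 0.046 against -0.0016 over all genes. Of the 12, 0 met the rule, against 2.38% of all genes. The subunit gene Chrna1 had a log2 fold change of -0.086 (SE 0.326), the receptor kinase gene Musk 0.080 (SE 0.516) and Myog -0.13 (SE 0.268). Dach2, the repressor acting between Hdac4 and Myog, had a median of 0 CPM in each group and at most 0.521 CPM in any sample, and was not tested.

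Between CHEMO FO and CHEMO STD, 10 of the 12 were higher, the median was 0.48 (all genes -0.0060), and 3 genes met the rule in the higher direction, against 0.615% of all genes. These were Cdkn1a, a cell cycle inhibitor (1.57, SE 0.568), and the ubiquitin ligases Trim63 (1.25, SE 0.494) and Fbxo32 (0.92, SE 0.432). Each adjusted p was 0.974 by edgeR's quasi-likelihood test. The study had itself reported Cdkn1a as higher in this comparison. Chrna1 (0.35, SE 0.294), Musk (0.76, SE 0.456) and Myog (0.50, SE 0.242) did not meet the rule. Without CHEMO FO 18 the median was 0.10 and 0 of the 12 met the rule, against 1.47% of all genes. The values of the 3 genes called with it were then 0.74, 0.14 and 0.30. The call of Fbxo32 was made in 11 of the 19 runs that left out a sample, and was lost also without CHEMO STD 1 and 2, 3, 4, 6 or 7 and without CHEMO FO 15 or 17.

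Between CHEMO FO and TUMOUR STD, 10 of the 12 were higher, with a median of 0.40 (all genes 0.0023), and 4 met the rule against 1.09% of all genes in that direction. They were Cdkn1a (1.37, SE 0.598), Gadd45a (1.29, SE 0.527), a stress-response gene that Hdac4 is known to act on, Fbxo32 (1.27, SE 0.466) and Trim63 (1.26, SE 0.528). Without CHEMO FO 18, Fbxo32 alone met the rule, at 0.65 (SE 0.312) with an adjusted p of 0.550 in edgeR, and the median was 0.19. In that fit 2.36% of all genes met the rule. The call of Gadd45a was lost also without TUMOUR STD 9, 10 or 12, and that of Cdkn1a without TUMOUR STD 8, 9 or 11 or CHEMO FO 15. Of the rest of the list, Musk was at 0.84 (SE 0.477), Myog at 0.37 (SE 0.251) and Chrna1 at 0.26 (SE 0.304).

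In CHEMO FO 18, genes of the denervation response and of the developmental myosins stood at the edges of their ranges. Runx1 was the highest of all samples, Myh3 was 0.408 times and Myh8 0.496 times the median of the others, both the lowest of all samples, and Ncam1 (1.13 times) and Hdac4 (0.876 times) were inside the range of the others. Of the 12 denervation genes tested, 8 were highest in this sample and 2 were lowest, against 18.7% and 18.2% of all genes. Musk stood at 30.2 CPM, against 2.05 to 9.18 in the others, Myog at 45.2, against 8.73 to 19.5, and Chrna1 at 9.45, against 1.27 to 5.21.

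The atrophy and stress genes of the list were further out. Trim63 was at 2589 CPM in this sample and at 194 to 415 in the others, Fbxo32 at 1865 against 161 to 650, Gadd45a at 77.4 against 5.15 to 12.7, and Cdkn1a at 183 against 6.99 to 80.7. Chrne, the adult receptor subunit, was lowest of all samples at 2.73 CPM, and so was Myod1 at 10.0 CPM; both were named after their values were seen. Fibre genes were also low there: Myh4, the main fast myosin, was at 61322 CPM, the lowest of all samples, against 76725 or more in the others. The summed leukocyte level of this sample, 107 CPM, was the highest in CHEMO FO but within the 58.2 to 281 CPM of CHEMO STD, and its part in the result was not tested.

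**Figure D3:**
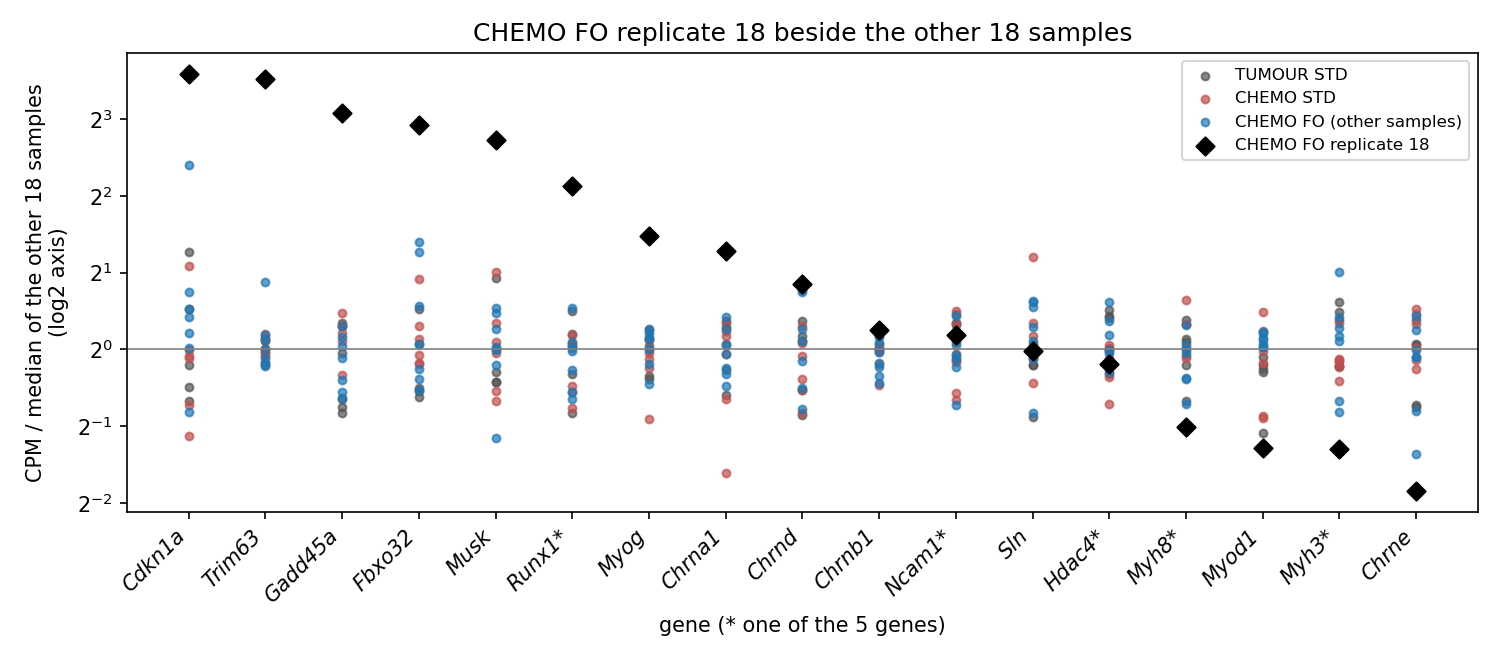
Level of the 5 genes (starred) and the 12 tested denervation genes in each sample divided by the median of the other 18 samples (vertical axis, log2 scale); diamonds are CHEMO FO 18 and dots are the other samples by group. Runx1 sits with Musk, Myog and the atrophy genes above all other samples, Myh3 and Myh8 lie below all others, and Ncam1 and Hdac4 lie among them.

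Genes of the developmental sarcomere other than the 2 myosins did not meet the rule in any comparison, against 2.38%, 1.66% and 3.60% of all genes. Of 6 listed, 4 were tested, with medians of 0.012, -0.14 and -0.019 in the 3 comparisons in the order used above. The embryonic light chain Myl4 was at 20.1 ± 4.50 CPM (SD, n = 5) in TUMOUR STD, 23.2 ± 4.198 (n = 6) in CHEMO STD and 20.6 ± 2.50 (n = 8) in CHEMO FO. Cardiac actin (Actc1), which fetal muscle also uses, was at 33.4 ± 14.5, 32.5 ± 8.16 and 28.9 ± 9.74 CPM. Tnnt2, the troponin T of heart and fetal muscle, was below the filter at a group mean of at most 1.02 CPM.

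Among the adult myosin heavy chains, Myh7 and Myh6 met the rule. In CHEMO STD versus TUMOUR STD all 4 tested genes were lower, with a median of -0.57, and 2 were called, against 1.45% of all genes lower: slow myosin Myh7 fell by 0.94 (SE 0.277) and Myh6 by 0.68 (SE 0.233) on the log2 scale, each with an adjusted p of 0.719 by edgeR's quasi-likelihood test. Both calls held when any sample was left out. Myh7b, a further relative of the slow form, had a log2 fold change of -0.47 (SE 0.203) and did not meet the rule; it was named after its values were seen. In the same comparison all 9 tendon and myotendinous junction markers were lower, with a median of -0.79, and 4 met the rule (Fmod, Kera, Thbs4 and Col22a1). Each call was lost without TUMOUR STD 10, and each also without at least 1 other sample. In the order named, they were made in 12, 11, 17 and 14 of the 19 runs that left out a sample. Their summed level was 671 to 1846 CPM in TUMOUR STD, 370 to 1317 in CHEMO STD and 284 to 1037 in CHEMO FO, and their part in the result was not tested. Myh7 was at 6808 ± 2232 CPM (SD, n = 5) in TUMOUR STD, 3549 ± 720 (n = 6) in CHEMO STD and 4474 ± 1911 (n = 8) in CHEMO FO. Against TUMOUR STD, Myh7 in CHEMO FO fell by 0.61 (SE 0.258). That call was lost without TUMOUR STD 9, 10 or 12 and without CHEMO FO 13, 15, 17, 18 or 20, with values from -0.77 to -0.45 as each sample was left out. Between the chemotherapy groups no adult myosin met the rule, against 1.66% of all genes. Myh4 had log2 fold changes of -0.17, 0.070 and -0.096. Myh1 and Myh2 were not analysed here.

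A list of 14 genes, with 13 tested, held the other class IIa deacetylases, the MEF2 factors they repress and the CaMKII and SIK kinases that act on them. It had no gene that met the rule in any comparison, against 2.38%, 1.66% and 3.60% of all genes, and its medians were -0.033, 0.0043 and -0.013. At these shares a list of this size can hold no call without differing from the rest. Hdac5, the closest in role to Hdac4, was at 71.6 ± 15.0 CPM (SD, n = 5), 60.7 ± 9.50 (n = 6) and 74.6 ± 15.1 (n = 8) in TUMOUR STD, CHEMO STD and CHEMO FO. Hdac9 was at 30.6 ± 8.25, 29.9 ± 6.66 and 24.03 ± 8.86 CPM, and Mef2c at 753 ± 337, 916 ± 199 and 723 ± 129 CPM. In CHEMO FO 18, 6 of the 13 were the lowest of all samples, namely 2 deacetylases, Mef2a and 3 kinases, with Hdac9 at 6.63 CPM against 16.9 or more in the others.

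On the list drawn up around Runx1, the partner subunit Cbfb and Runx1t1 were tested, neither of them a RUNX factor. Neither met the rule in any comparison, against 2.38%, 1.66% and 3.60% of all genes. Cbfb was at 34.7 ± 7.57 CPM (SD, n = 5) in TUMOUR STD, 39.6 ± 4.04 (n = 6) in CHEMO STD and 33.1 ± 5.85 (n = 8) in CHEMO FO, and at 33.4 CPM in CHEMO FO 18, where Runx1 was highest. Runx2 and Runx3 were below the filter, with at most 3.73 and 0.668 CPM in any sample, so Runx1 was the only RUNX factor tested.

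Of 7 partners and relatives of NCAM, 4 were tested. All 4 were lower in CHEMO STD versus TUMOUR STD, with a median of -0.70, and the adhesion molecules Chl1 (-1.91, SE 0.741) and L1cam (-1.12, SE 0.422) met the rule, against 1.45% of all genes lower. The comparison of CHEMO FO with TUMOUR STD uses the same TUMOUR STD samples, and there the same direction was found for all 4, with Chl1 at -1.81 (SE 0.687) and L1cam at -0.91 (SE 0.397) both called, against 2.51% of all genes lower. TUMOUR STD 10 decided these calls: without it Chl1 was at 0.14 and 0.24, L1cam at -0.90 and -0.70, and none was called. The call of L1cam in CHEMO FO was lost also without TUMOUR STD 8 and without CHEMO FO 15, 16, 17, 18 or 20. Chl1 was at 17.4 CPM in TUMOUR STD 10, against a TUMOUR STD median of 1.13. L1cam was thinly sampled, with group means of 2.44 CPM in TUMOUR STD, 1.04 in CHEMO STD and 1.34 in CHEMO FO, and 6 counts in CHEMO FO 18. The polysialyltransferase gene St8sia4, which adds the sugar chains that loosen NCAM adhesion, was at 3.99 ± 1.21 CPM (SD, n = 5), 3.38 ± 1.06 (n = 6) and 3.11 ± 1.39 (n = 8), and St8sia2 was below the filter at a group mean of at most 0.683 CPM.

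**Figure D4:**
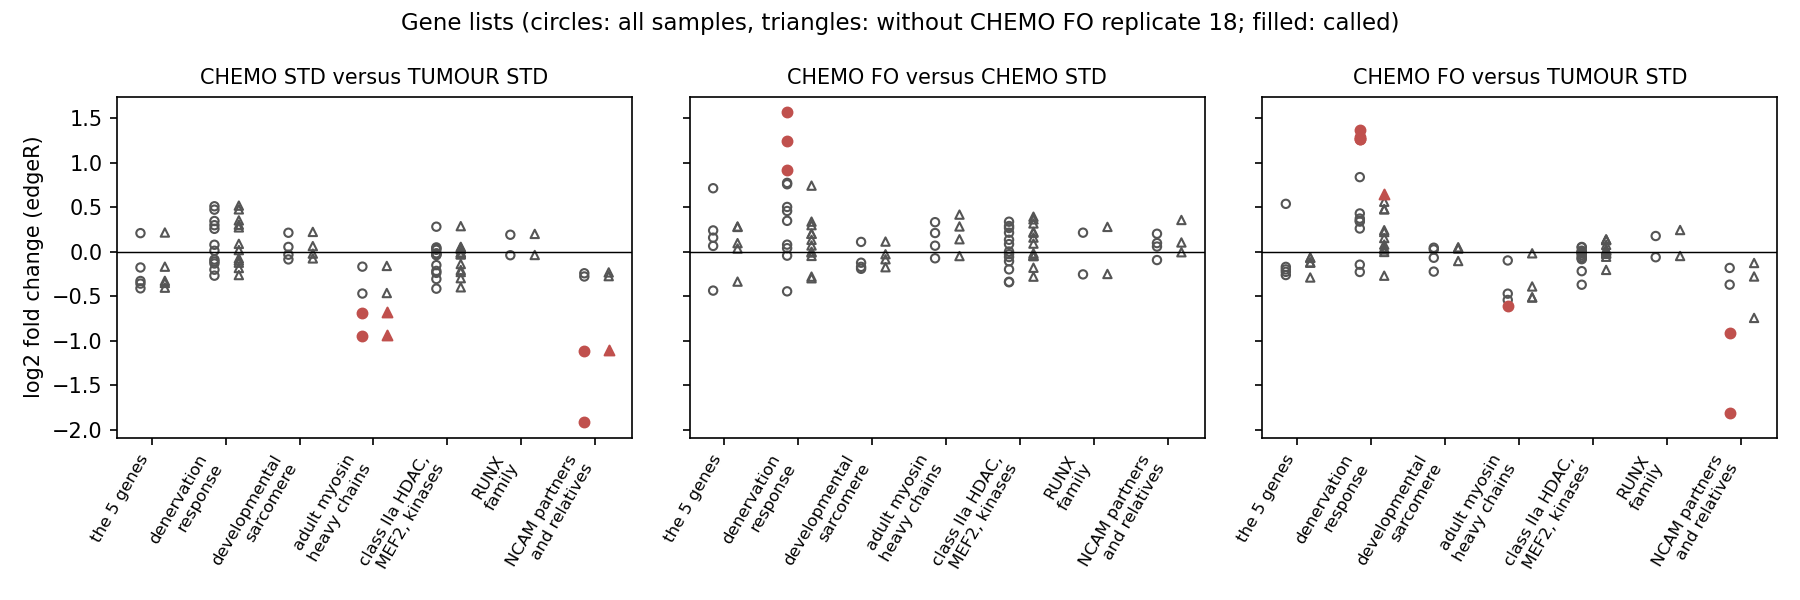
Log2 fold change (vertical axes) of every tested gene of the 5 genes and of 6 lists in each comparison, from all 19 samples (circles) and without CHEMO FO 18 (triangles); filled symbols met the rule of unadjusted p under 0.05 and 1.5-fold. The filled denervation genes in both CHEMO FO comparisons are open without that sample, apart from Fbxo32 against TUMOUR STD, while Myh7 and Myh6 stay filled in CHEMO STD versus TUMOUR STD; Chl1 is below the filter in the second set.

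Whether the 5 genes varied together between samples was asked with the group means removed. In the values given without some samples, the group means removed were still those of all 19 samples. None of the 10 pairs passed the adjusted threshold. The strongest were Myh3 with Hdac4 (r = 0.47, rho = 0.50, permutation p = 0.0539 and adjusted p = 0.318 for r, and r = 0.26 without the 2 samples farthest from the Myh3 median) and Myh8 with Hdac4 (r = 0.47, rho = 0.42, permutation p = 0.0640, adjusted p = 0.318, and r = 0.37 without the 2 farthest). Myh3 with Myh8 gave r = 0.41 and rho = 0.33 (permutation p = 0.133, adjusted p = 0.333, 0.32 without the 2 farthest). Runx1 gave r = -0.42 with Myh3 and -0.45 with Myh8 (rho -0.23 and -0.24, permutation p = 0.188 and 0.0953, adjusted p = 0.376 and 0.318). With CHEMO FO 18 left out in this way, the r values were -0.00031 and -0.14, and without the 2 farthest samples 0.023 and -0.10.

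The 5 genes were also set against the mean level of 7 lists of cell type markers, 35 relations in all, and none passed the adjusted threshold. Runx1, which leukocytes also express, was nearest: with the leukocyte list r was 0.52 and rho 0.58 over 19 samples (permutation p = 0.00202 for r, adjusted p = 0.0707 for r and 0.393 for rho). The r was 0.49 without the 2 farthest samples and 0.50 without CHEMO FO 18. Both values keep CHEMO STD 7, which had the highest summed leukocyte level of all samples (281 CPM) and the highest Runx1 of its group (4.92 CPM). In CHEMO STD versus TUMOUR STD all 9 tested leukocyte markers were higher and 3 met the rule (Ptprc, Rac2 and Coro1a), against 0.930% of all genes higher. In CHEMO FO versus CHEMO STD, which uses the same CHEMO STD samples, all 9 were lower and the same 3 met it, against 1.05% of all genes lower. All 6 of these calls rested on CHEMO STD 7: without it Ptprc was at 0.39 and -0.38, Rac2 at 0.17 and -0.14 and Coro1a at -0.0087 and -0.24 in the 2 comparisons. In CHEMO STD versus TUMOUR STD Rac2 was lost also without TUMOUR STD 9 or 11, and Coro1a without TUMOUR STD 8, 9 or 11. Cd52 was the only marker of this list at 0 in a whole group, in TUMOUR STD and CHEMO FO. Hdac4 with the satellite cell list gave r = 0.58 and rho = 0.45 (permutation p = 0.0114, adjusted p = 0.1995), and 0.48 without the 2 farthest samples. The summed level of 6 satellite cell markers was 34.0 to 37.5 CPM in TUMOUR STD, 27.2 to 40.1 in CHEMO STD and 26.0 to 45.4 in CHEMO FO. Of the 5 tested, 0 met the rule in any comparison, against 2.38%, 1.66% and 3.60% of all genes.

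The genes whose levels ran most like each of the 5 were taken as the 3 with the highest Pearson r of log2 CPM over 19 samples, out of 11715 compared. For Myh3 these were Zzef1 (0.85), Ncoa2 (0.85) and Rai1 (0.83), and for Hdac4 Cul9 (0.83), Trappc9 (0.81) and LOC100911248 (0.81). For Myh8 they were Rasgrp2 (0.74), Gpt (0.74) and Col4a5 (0.73), and for Ncam1 Zfp217 (0.76), Hlcs (0.70) and Prdm10 (0.68). Without CHEMO FO 18 these r values were 0.77 to 0.83 for Myh3, 0.81 to 0.84 for Hdac4, 0.58 to 0.64 for Myh8 and 0.69 to 0.76 for Ncam1.

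For Runx1 the 3 were the tubulin gene Tubb6 (0.90), the small heat shock protein gene Hspb1 (0.87) and Klhl40 (0.87), a gene needed for the thin filament. Each had its highest level in CHEMO FO 18, where Tubb6 was at 210 CPM, against 5.40 to 19.6 in the other samples, Hspb1 at 1002 against 127 to 333, and Klhl40 at 441 against 123 to 236. Without that sample the r values were 0.70, 0.67 and 0.65. The highest of so many correlations is chosen for its size, so no test is given for any of them.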

How the data were processed

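Total RNA from gastrocnemius muscle was sequenced by the authors with a stranded kit after removal of ribosomal RNA. Per the submitters' processing notes and the study's methods, the authors used CASAVA 1.9, Trim Galore 0.4.1, FastQC 0.11.4, TopHat2 2.0.10 and Bowtie2 on the Rnor 6 genome and counted with Partek Flow; its settings for strand and for reads that match several genes were not stated in the methods or notes. The deposited table holds raw counts per gene for 20 libraries. Of 32883 rows, 388 without a gene name (0.102% to 0.272% of counts) were left out. For Myh4, 2 values were stored to 3 digits only.

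CHEMO STD 1 and 2 were added, which left 19 samples. Counts were fitted in edgeR 4.0.16 (R 4.3.3) with TMM factors, the default filter on low counts (minimum count 10) and the quasi-likelihood test, all 3 groups in 1 fit, with Benjamini-Hochberg adjustment over 11716 genes. SEs are from the fold change and its F value. Each of the 5 genes also had its group means of log2 CPM (prior count 2) compared by an exact two-sided permutation test (462, 3003 and 1287 arrangements, smallest possible p 0.00216, 0.000333 and 0.000777). Correlations used 100000 permutations within groups (scipy 1.17.1). List levels were means over the markers that passed the filter, except for keratinocytes, where all 9 genes in the count table were used. Where samples were left out of a correlation within groups, the group means removed were still those of all 19 samples. DESeq2 1.42.0 and limma 3.58.1 were alternatives, and the scripts were tested on simulated data. The labels do not tie sample numbers to animals, so p-values measure the spread between these samples. The 5 genes and the lists were chosen with earlier results of these data known. Named besides the 5 were list genes that met the rule in a comparison, a preset group whatever they did, and the 3 genes most alike to each. Results for some listed genes are not reported here.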

Additional observations from a re-analysis of the deposited data

Results flagged for a closer look

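Each of the 5 genes was examined in each of the 3 groups, 15 sets of values, for a sample far from the others by Dixon's criterion, which chance meets in about 1 in 20 sets. The Runx1 level of CHEMO FO 18 was 18.9 CPM, and its gap to the nearest sample was 0.783 of the range of the group (critical value 0.526). The Myh3 level of CHEMO STD 5 was 102 CPM, with a gap of 0.675 of the range of that group (critical value 0.625). Leaving out CHEMO STD 5 gave Myh3 a log2 fold change of -0.46 in CHEMO STD versus TUMOUR STD, which did not meet the rule.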

How the results depend on the processing

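Over the alternatives run for the fold changes of the 5 genes, 474 values kept their direction and their side of the rule, 8 turned and 4 newly met the rule. Those that turned include the sum of Myh3 and Myh8 set against Myh8 alone. DESeq2, other scalings, other filters, other treatments of CHEMO STD 1 and 2, and limma with sample weights gave no call for any of the 5 genes. Runx1 in CHEMO FO versus CHEMO STD, however, was 0.21 under limma with sample weights, which give less weight to samples that stand apart. With a threshold of 1.2-fold, Hdac4 was called in CHEMO STD versus TUMOUR STD (-0.41) and Myh8 in CHEMO FO versus CHEMO STD (-0.435). With the counts of Myh3 and Myh8 added, the sum was at -0.26 and 0.062 in these comparisons, opposite in sign to Myh8 alone. The sum follows Myh3, with 238 to 1466 counts per sample against 35 to 315 for Myh8, so it cannot show how stable Myh8 is. Leaving out a sample in turn gave -0.043 to 0.29 for Myh3, -0.028 to 0.20 for Ncam1 and 0.098 to 0.83 for Runx1 in CHEMO FO versus CHEMO STD, and -0.068 to 0.69 for Runx1 in CHEMO FO versus TUMOUR STD. Leaving out TUMOUR STD 10 and CHEMO FO 18 together, an alternative chosen after seeing the data, gave 0.032 for Myh3 and -0.060 for Runx1 in CHEMO FO versus TUMOUR STD. The correlation of Myh8 with Ncam1 was -0.0074 with group means kept, and that of Runx1 with Hdac4 0.11 as Spearman's rho and 0.049 with group means kept. Genes called in CHEMO STD versus TUMOUR STD numbered 279, with 971 without a filter, 742 at 1.2-fold, 64 at 2-fold and 161 (without TUMOUR STD 10) to 603 (without CHEMO STD 1 and 2) when a sample was left out. CHEMO FO versus CHEMO STD had 195, with 722, 494 and 58, and 153 to 266. CHEMO FO versus TUMOUR STD had 422, with 1116, 1022 and 112, 273 (without CHEMO FO 18) to 584 (without TUMOUR STD 11), and 201 without both TUMOUR STD 10 and CHEMO FO 18. The cause was not tested, apart from the number of genes tested and the fold threshold, which those alternatives set. No paired analysis was possible because the labels number the samples from 1 to 20 and the groups share no number. Depth limits Runx1 most, with as few as 8 counts in a sample.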
